A study of Homo sapiens with 6 samples.

Results

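The 39 genes described here encode the machinery of autophagy and its cargo receptors. They were taken by symbol from the authors' deposited table, which holds 26364 genes, and all 39 had a row. RNA was sequenced from cells of the established human line REH, a B-cell precursor acute lymphoblastic leukaemia, after 6 h with 50 µM S3I-201, a compound that targets STAT3, or after 6 h with its solvent DMSO. Each group held 3 libraries, which the study places in independent experiments, and all came from the 1 cell line. For each gene the table gives a mean normalized count over the 6 libraries, a log2 fold change and its p-value, raw and adjusted, so values of single libraries cannot be shown. It does not name the group on the bottom of the fold change. A positive value is taken here to mean higher in S3I-201, since DMSO comes first in the alphabet and would be the default reference of DESeq2, the authors' tool. The comparison was deposited under a name that puts DMSO before S3I-201, which can also be read as DMSO over S3I-201. If the table was made the other way round, all directions below are reversed.

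In autophagy, a double membrane closes around cytoplasm or damaged parts of the cell and delivers them to the lysosome. The ULK1 kinase complex starts the process, a lipid kinase complex around PIK3C3 marks the site of growth, and ATG9A and ATG2 proteins supply lipid. A pair of ubiquitin-like conjugation systems then attaches small proteins of the ATG8 family, the LC3 and GABARAP proteins, to the membrane, where cargo receptors such as SQSTM1 (p62) dock with what they carry. LC3 and receptor proteins are themselves degraded along with the cargo, and message levels do not measure how much material is digested.

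Of the 37 autophagy genes with an adjusted p, 6 were higher with S3I-201 at an adjusted p of 0.05 per the authors' deposited table, 0 were lower and 31 did not pass. By the unadjusted p of the authors' DESeq2 fit, 11 were under 0.05 and positive and 0 were under 0.05 and negative. The 6 were SQSTM1, MAP1LC3B, GABARAPL1, WIPI1, CALCOCO2 and ATG13: 2 cargo receptors, 2 ATG8 proteins, 1 lipid-binding protein and 1 ULK1 complex subunit. They make up 16.2% of the 37. Over all 11912 genes with an adjusted p, 4.45% were higher, 1.45% were lower and 5.9% passed in either direction, and at an unadjusted p under 0.05 9.11% were positive and 6.88% negative, where 29.7% of the 37 were positive. In bulk RNA a change per cell and a change in the share of cells that express a gene cannot be told apart. Positive values of any size were found in 29 of the 37, or 78.4%, beside 46.4% of all genes. The median log2 fold change was 0.14 over the 37 autophagy genes and -0.02 over all genes with an adjusted p per the authors' deposited table. At mean normalized counts of at least 100, where 4.61% of all genes were higher, 4 of 33 autophagy genes were, or 12.1%. These shares are descriptions, and the genes, chosen with earlier results of these data known, were not tested as a list.

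**Figure D1:**
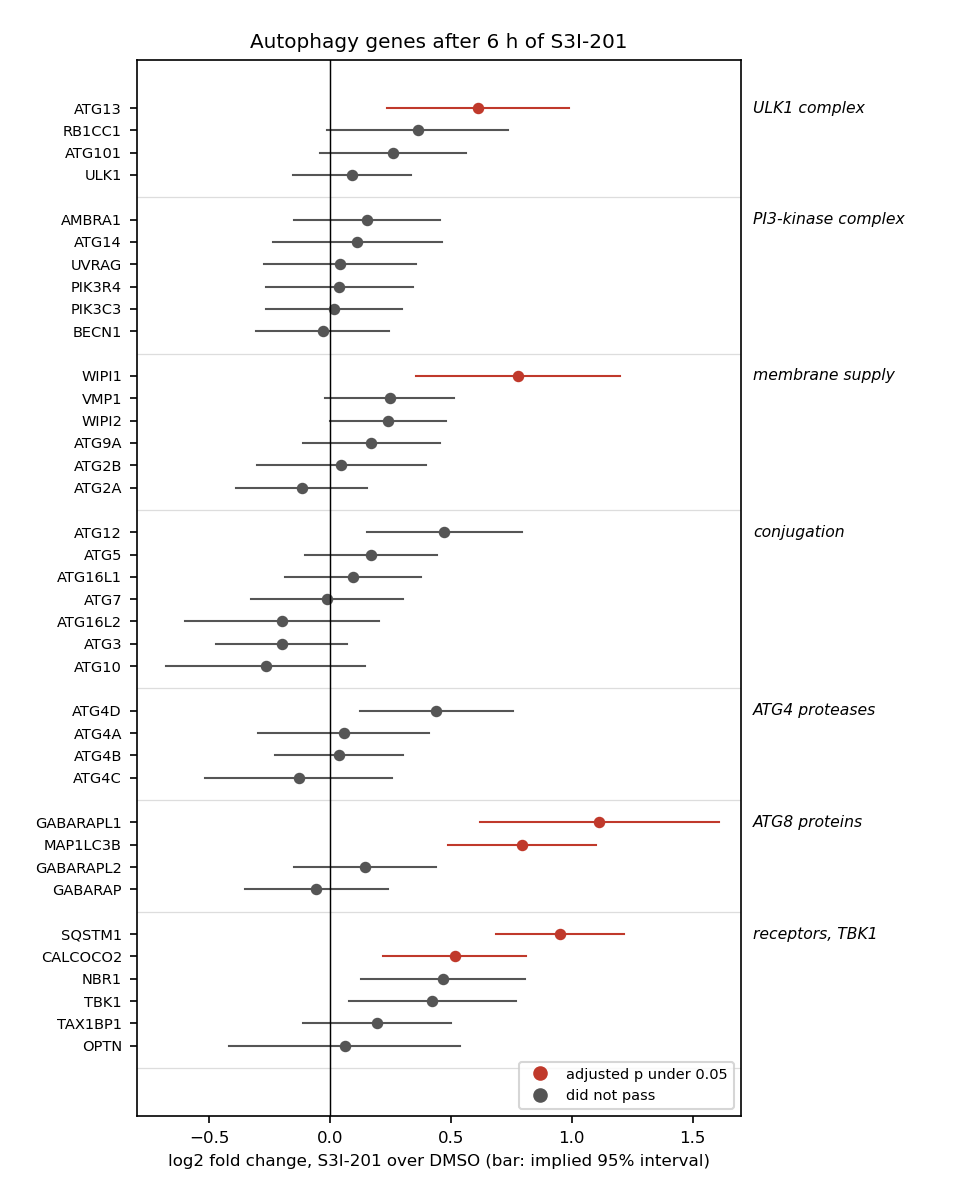
Log2 fold change of S3I-201 over DMSO (x axis) for the 37 autophagy genes with an adjusted p, grouped by role, with points for the authors' values and bars for the implied 95% interval. The 6 genes in red passed an adjusted p of 0.05 and lie between 0.52 and 1.11, while the 31 in grey lie between -0.27 and 0.47.

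The spread behind each value is given as an implied standard error (SE), which is the log2 fold change over the z value that matches its p-value, both as deposited by the authors. It ran from 0.12 for WIPI2 to 0.25 for GABARAPL1 among the 37. The fold changes appear shrunken towards 0, since genes seen in only 1 read stood at 0.033 to 0.042 in size on the log2 scale, so weakly expressed genes such as GABARAPL1, WIPI1 and OPTN can be understated. For all 31 genes that did not pass, the implied 95% interval stayed within a 2-fold change in either direction, as it did for 98.3% of all genes that did not pass. A doubling or halving of these 31 lay outside the implied intervals, which rest on the shrunken values. Such intervals also narrow where reads are few, as for ULK2, with 3 reads in all and no adjusted p (-0.15 to 0.20). They therefore cannot exclude a doubling or halving of weakly expressed genes such as OPTN and ATG10. For 5 of the 31, ATG12, ATG4D, NBR1, TBK1 and WIPI2, the interval lay above 0, and they did not pass after adjustment over all genes.

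The libraries differed in depth. The lowest means were sums of 6 fixed amounts, each the worth of 1 read in 1 library, and these gave size factors that correspond to about 6560000 to 14500000 counts per library, scaled by the sum of the means. By the sign of genes seen in only 1 read, the shallowest and the deepest library both lay on the positive side, read here as S3I-201. Size factors on that side ran from 0.573 to 1.27, beside 0.948 to 1.24 on the negative side. Of 14 B-precursor markers, 13 had a mean normalized count of at least 100 per the authors' deposited table, with a median of 3740 over the 14, and VPREB1, a surrogate light chain gene, was listed at 0. The 4 T cell markers and 3 erythroid markers in the table were all listed at 0, and 2 of 3 stromal markers were, with COL1A1 at 40.6. Of 5 myeloid markers 3 were under 10, and MPO at 978 and CSF1R at 127 were the others. Of these markers of other cell types, MPO, CSF1R and COL1A1 had a DESeq2 adjusted p per the authors' deposited table, and 0 of them passed, with 0 at an unadjusted p under 0.05. Among the B-precursor markers CD24 was lower, at a log2 fold change of -0.61 (DESeq2 adjusted p = 0.00505), and the other 10 with an adjusted p did not pass. Of these 11, 10 were negative, the opposite sign to most autophagy genes, beside 6387 negative of all 11912 genes. EBF1 and VPREB3, at means of 2992 and 1065, had a fold change but no p-value. The part of the B-precursor markers in the autophagy values was not tested.

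The ULK1 complex, which receives signals from nutrient and energy sensors, had 1 of its 4 genes with an adjusted p higher and 3 that did not pass. Among all genes with an adjusted p, 4.45% were higher and 46.4% were positive. ATG13, the adaptor that joins ULK1 to its partners, had a mean normalized count of 1225 and a log2 fold change of 0.61 per the authors' deposited table, or 1.53-fold (SE 0.19, adjusted p = 0.0294). With equal group sizes this corresponds to implied group means of 1481 in S3I-201 and 969 in DMSO. ATG13 had the least margin of the 6 genes that passed. Its partners were all positive without passing per the authors' deposited table, namely the scaffold RB1CC1 (FIP200) at 0.36 (adjusted p = 0.337), ATG101, which stabilises ATG13, at 0.26 (adjusted p = 0.433) and the kinase ULK1 itself at 0.09 (adjusted p = 0.815). The second kinase of the family, ULK2, was close to absent in REH cells. Its mean of 0.447 per the authors' deposited table corresponds to 3 reads in all 6 libraries together, against a mean of 1677 for ULK1. Normalized counts per kb of exon allow only a rough comparison between genes, since the annotation used for counting is not given. On that scale ULK1 stood at 316, ATG13 at 262, ATG101 at 235 and RB1CC1 at 117, with ULK2 at 0.0713. ATG13 lies on chromosome 11 from 46617527 to 46674818 (hg38, GENCODE 29, whole gene, plus strand).

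The class III PI3-kinase complex, which makes the phosphoinositide that marks the forming membrane, had values close to 0 in all 6 genes. At the DESeq2 adjusted p of the authors' deposited table, none of its 6 genes passed (0 of 6), and 0 had an unadjusted p under 0.05. Among all genes with an adjusted p, only 5.9% passed in either direction. At an unadjusted p under 0.05, 9.11% of all genes were positive and 6.88% negative, so counts of 0 among 6 genes do not set this complex apart. Their log2 fold changes ran from -0.03 for BECN1, the scaffold Beclin 1, to 0.15 for AMBRA1, a regulator that binds Beclin 1, with a median of 0.04. The lipid kinase PIK3C3 (VPS34) had 0.02, its pseudokinase partner PIK3R4 (VPS15) 0.04, the autophagy-specific subunit ATG14 0.11 and the alternative subunit UVRAG 0.04 per the authors' deposited table. The implied 95% interval of BECN1 ran from -0.30 to 0.24 and that of PIK3C3 from -0.26 to 0.30. All 6 were well detected, with mean normalized counts from 267 for UVRAG to 1673 for PIK3C3. Exons of BECN1 overlap CNTD1 on the other strand over 23.5% of their length, and CNTD1 had a mean of only 0.667 per the authors' deposited table.

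Among 6 genes that supply membrane or read its phosphoinositides, 1 was higher, beside 4.45% of all genes with an adjusted p. WIPI1, which binds the lipid made by PIK3C3 and is one of the classic markers of early autophagosomes, had a mean normalized count of 85.5 and a log2 fold change of 0.78 per the authors' deposited table, or 1.72-fold (SE 0.22, adjusted p = 0.00825). The implied group means were 108 in S3I-201 and 62.9 in DMSO. Its relative WIPI2, which recruits the ATG16L1 complex, was more abundant, at 323 normalized counts per kb of exon beside 45.2 for WIPI1. WIPI2 had a log2 fold change of 0.24 per the authors' deposited table (SE 0.12, adjusted p = 0.308) and did not pass, with an unadjusted p just under 0.05. Their implied 95% intervals overlap, from 0.36 to 1.20 for WIPI1 and from 0.00 to 0.48 for WIPI2, and the difference between the paralogues was not tested. The lipid scramblases VMP1 and ATG9A had 0.25 and 0.17, and the lipid transfer proteins ATG2B and ATG2A had 0.05 and -0.12 per the authors' deposited table, none of which passed. WIPI1 lies on chromosome 17 from 68420948 to 68457513 (hg38, whole gene, minus strand), and 28.5% of its exon length overlaps exons of ARSG on the other strand. ARSG had a mean of 17.6 per the authors' deposited table, and the library method does not mark the strand.

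The 7 genes of the conjugation systems, which include enzymes, ATG12 and its partners, did not share a direction. Among all genes with an adjusted p, 5.9% passed in either direction, and 9.11% were positive and 6.88% negative at an unadjusted p under 0.05. Of these 7, 0 passed the DESeq2 adjusted p of the authors and 1 had an unadjusted p under 0.05. That gene was ATG12, the ubiquitin-like protein that is joined to ATG5, with a mean normalized count of 629 and a log2 fold change of 0.47 per the authors' deposited table (SE 0.16). Its adjusted p of 0.0608 was the smallest among the 31 genes that did not pass. It passed once the median log2 fold change of all genes was removed (0.49, adjusted p = 0.0427) and once the abundance trend was removed (0.49, adjusted p = 0.0489). The other 6 ran from negative to positive. The E2-like enzymes ATG10 and ATG3, which complete the 2 conjugations, had -0.27 and -0.20 per the authors' deposited table, and the E1-like enzyme ATG7, which serves both, had -0.01. ATG5, the acceptor of ATG12, had 0.17, ATG16L1, which places the ATG12-ATG5 conjugate on the membrane, 0.09, and its paralogue ATG16L2 -0.20 per the authors' deposited table. The group median was -0.01. Levels in normalized counts per kb of exon ranged from 17.0 for ATG10 to 324 for ATG3. Exons of ATG7 overlap VGLL4 on the other strand over 32.2% of their length and those of ATG16L2 overlap FCHSD2 over 20.6%, at means of 983 for VGLL4 and 1261 for FCHSD2 per the authors' deposited table, so these values are uncertain.

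The ATG4 proteases trim ATG8 proteins before they are attached and release them afterwards. At the DESeq2 adjusted p of the authors, 0 of 4 passed and 1 had an unadjusted p under 0.05, namely ATG4D at a log2 fold change of 0.44 per the authors' deposited table (SE 0.16, adjusted p = 0.0884). Among all genes with an adjusted p, 5.9% passed in either direction, and 9.11% were positive and 6.88% negative at an unadjusted p under 0.05. ATG4B, the family member with the broadest activity, had 0.04 per the authors' deposited table at a mean of 1224, beside 0.06 for ATG4A at a mean of 193 and -0.13 for ATG4C at a mean of 186. Exons of ATG4D overlap those of KRI1 on the other strand over 17.5% of their length. KRI1, a ribosome biogenesis factor, had -0.45 at a mean of 1257 per the authors' deposited table, so reads of the pair on the shared stretch cannot be told apart.

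The ATG8 proteins are the small ubiquitin-like proteins that coat the membrane, and they split into members that were higher and members close to 0. GABARAPL1 had the largest log2 fold change of the 37 genes per the authors' deposited table, 1.11 or 2.16-fold (SE 0.25, adjusted p = 4.91e-04). It was also the only one of the 37 to reach a 2-fold change. MAP1LC3B, which encodes LC3B, the protein most used to mark autophagosomes, was second within the family at 0.79 or 1.73-fold per the authors' deposited table (SE 0.16, adjusted p = 2.76e-05). The implied group means were 87.4 in S3I-201 and 40.4 in DMSO for GABARAPL1, and 1249 in S3I-201 and 720 in DMSO for MAP1LC3B. GABARAP, the founding member of the second subfamily, had -0.06 (SE 0.15, adjusted p = 0.926) and GABARAPL2 had 0.14 (SE 0.15, adjusted p = 0.737) per the authors' deposited table. The implied 95% interval of GABARAPL1, 0.62 to 1.61, and that of MAP1LC3B, 0.49 to 1.10, lay above those of GABARAP, -0.35 to 0.24, and GABARAPL2, -0.15 to 0.44. The differences between these genes were not tested.

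Levels within the ATG8 family were uneven, and the gene with the largest change was a minor member. In normalized counts per kb of exon, GABARAP stood at 752, the highest value of the 39 genes, MAP1LC3B at 326, GABARAPL2 at 258 and GABARAPL1 at 21.4. MAP1LC3A, which encodes LC3A, had a mean of 0.131 per the authors' deposited table, which corresponds to 1 read in all 6 libraries together. Exons of GABARAP overlap those of AC120057.2 on the same strand over 30.5% of their length and of AC120057.3 on the other strand over 25.2%, so its level is uncertain. The same holds for ATG9A, with 43.5% shared with AC068946.2 on the same strand, and ATG101, with 42.7% shared with AC025259.1 on the other. Copies of the ATG8 genes held few reads. MAP1LC3B2, a near-identical copy of MAP1LC3B, had a mean of 5.67 beside 985 for MAP1LC3B, while GABARAPL3, a copy of GABARAPL1, was listed at 0 per the authors' deposited table. How the counting treated reads that match both copies was not given in the sources used here, so the values of MAP1LC3B and GABARAPL1 carry that uncertainty. GABARAPL1 lies on chromosome 12 from 10212458 to 10223130 and MAP1LC3B on chromosome 16 from 87383995 to 87404779 (hg38, whole genes, plus strand).

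**Figure D2:**
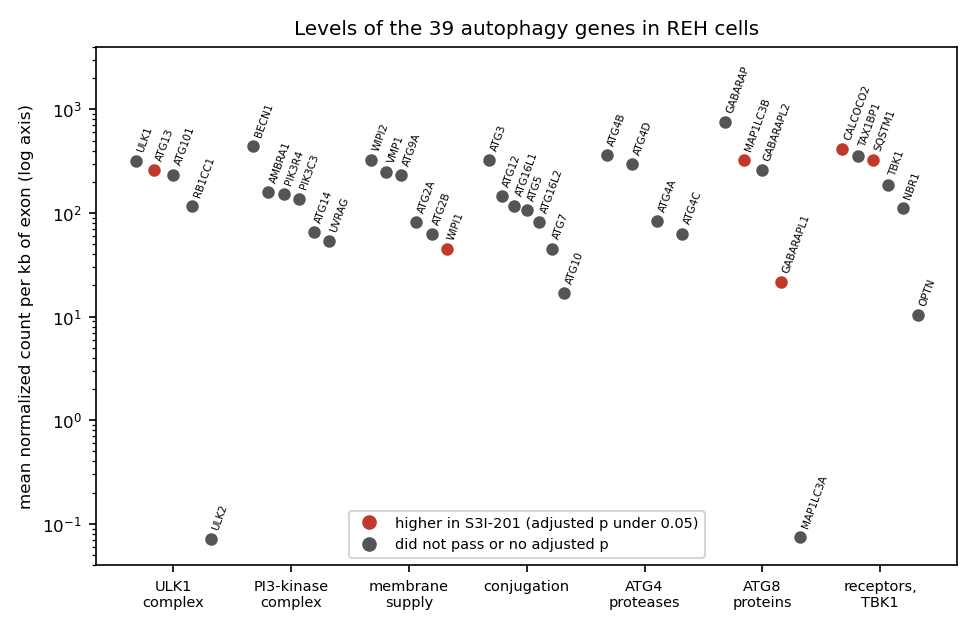
Mean normalized count per kb of exon on a log axis (y axis) for the 39 autophagy genes by role (x axis), 1 point per gene, pooled over the 6 libraries. Red points mark the 6 genes higher in S3I-201, which span 21.4 for GABARAPL1 to 412 for CALCOCO2, and ULK2 and MAP1LC3A lie far below the other genes.

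Cargo receptors and their kinase were positive in 6 of 6 genes, with 2 higher and 4 that did not pass. Among all genes with an adjusted p, 46.4% were positive and 4.45% were higher. SQSTM1, which encodes p62, a receptor for ubiquitinated protein that also binds KEAP1, the inhibitor of NRF2, had the smallest adjusted p of the 37 genes per the authors' deposited table. Its log2 fold change was 0.95 or 1.93-fold at a mean normalized count of 1123 per the authors' deposited table (SE 0.14, adjusted p = 4.07e-10), and the implied group means were 1479.9 in S3I-201 and 766 in DMSO. CALCOCO2, the receptor NDP52 for bacteria and damaged mitochondria, had 0.52 or 1.43-fold per the authors' deposited table at a mean of 1573 (SE 0.15, adjusted p = 0.0151). Its implied group means were 1851 in S3I-201 and 1295 in DMSO. NBR1, which shares the domain layout of p62 and acts with it, had 0.47 (SE 0.17, adjusted p = 0.0921) per the authors' deposited table. TBK1, the kinase that phosphorylates several receptors, had 0.42 there (SE 0.18, adjusted p = 0.164). NBR1 and TBK1 did not pass, although both had an unadjusted p under 0.05.

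The remaining receptors had smaller values per the authors' deposited table, with TAX1BP1, a relative of NDP52, at 0.19 (adjusted p = 0.625) and optineurin, OPTN, at 0.06 (adjusted p = 0.950). OPTN was the least abundant receptor, at 10.4 normalized counts per kb of exon beside 412 for CALCOCO2, 356 for TAX1BP1, 323 for SQSTM1 and 111 for NBR1. Exons of SQSTM1 overlap those of MRNIP, listed as C5orf45, on the other strand over 39.8% of their length in GENCODE 29. C5orf45 had a mean of 133 and a log2 fold change of -0.08 (adjusted p = 0.923) per the authors' deposited table. SQSTM1 lies on chromosome 5 from 179806398 to 179838078 and CALCOCO2 on chromosome 17 from 48830988 to 48866522 (hg38, whole genes, plus strand).

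**Figure D3:**
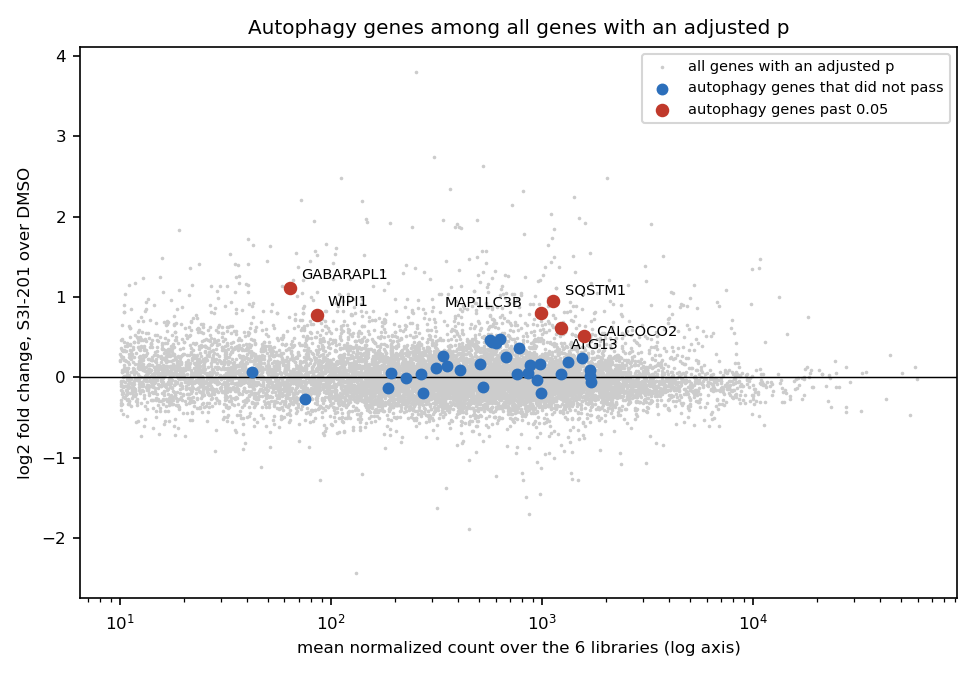
Log2 fold change of S3I-201 over DMSO (y axis) against the mean normalized count over the 6 libraries on a log axis (x axis) for the 11912 genes with an adjusted p (grey), with the 37 autophagy genes in colour. GABARAPL1 and WIPI1 passed at means of 63.9 and 85.5, and the other 4 genes in red at means from 985 to 1573.

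The 6 genes that passed were also looked at for short motifs in front of their starts. RefSeq windows (GRCh38.p14) of 300 bases, 250 before and 50 after each listed start, were found for 35 of the 39 genes, in 43 windows. Of 4 motifs searched on both strands, TGACGTCA, the cAMP response element, occurred in 1 of the 35 genes, GABARAPL1, and in 1.85% of all 35116 windows. TGACNNNGC, the core of the antioxidant response element, occurred in ATG101, CALCOCO2 and MAP1LC3B, or 8.57% of the 35 genes, beside 13.3% of all windows. TCACGTGA, the core of the CLEAR element of lysosomal genes, occurred in ATG3 and in 0.98% of all windows, and TGATGNAA, bound by ATF4 with a C/EBP partner, in 0 of the 35 genes and 3.62% of all windows. The share of the 35 genes counts a match in any window of a gene, while the other share counts single windows, so the 2 are unlike measures. Palindromic motifs were counted once per site, and no 2 of the matches in these genes overlapped. The matches in genes that passed are shown here with the motif in capitals, the only ones of that kind, read on the plus strand.
GABARAPL1, chr12:10212836-10212865: ggctcgcggggTGACGTCAcagcccgacgc
MAP1LC3B, chr16:87392280-87392309: gcgagtcaccTGACCAGGCtgcgggctgag
CALCOCO2, chr17:48830785-48830987: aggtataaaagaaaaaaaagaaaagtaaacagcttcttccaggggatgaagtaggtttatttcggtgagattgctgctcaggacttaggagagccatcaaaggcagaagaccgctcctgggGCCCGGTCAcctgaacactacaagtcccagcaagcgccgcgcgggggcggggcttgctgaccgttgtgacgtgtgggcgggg
The GABARAPL1 and MAP1LC3B stretches of 30 bases lie within first exons of longer transcripts in GENCODE 29, and the CALCOCO2 stretch lies outside its exons, with the motif on the minus strand. A match is a description of the letters and not evidence of binding. No match to the 4 motifs was found for SQSTM1, WIPI1 or ATG13. Sites outside the windows of 300 bases were not searched, so this gives no statement on sites farther from the start.

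In mouse cells starved of an amino acid, 12 of the autophagy genes are known as targets of the stress factors ATF4 or CHOP. Of these 12, 2 were higher with S3I-201 and 10 did not pass per the authors' deposited table, with a median log2 fold change of 0.12. Over all genes with an adjusted p, 4.45% were higher and the median was -0.02. Of the other 25 autophagy genes with an adjusted p, 4 were higher and 21 did not pass, with a median of 0.15. The 2 were SQSTM1 and MAP1LC3B, and NBR1 and ATG12 had the next smallest p-values of the 12. ATG3, ATG10, BECN1, GABARAP and ATG7, also of the 12, had negative values.

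Around the core genes, 5 lists of partners and regulators were counted. They were chosen with earlier results of these data known, so their counts and medians are descriptions only. Over all genes with an adjusted p, 4.45% were higher and 1.45% lower, with a median log2 fold change of -0.02. Of regulators of transcription of autophagy genes, 5 of 10 with an adjusted p were higher and 5 did not pass, with a median log2 fold change of 0.51. DDIT3, which encodes CHOP, had 1.86, CEBPB 1.30, TFE3, a driver of lysosomal and autophagy genes, 1.21, ATF4 0.89 and NFE2L2, which encodes NRF2, 0.59 per the authors' deposited table. TFEB, the relative of TFE3, had 0.12 there (adjusted p = 0.831), and MITF was near 0 in level with a mean of 0.263. FOXO3 had 0.44 (adjusted p = 0.161) and FOXO1 -0.06 (adjusted p = 0.945) per the authors' deposited table.

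Of other partners in autophagosome formation, 3 of 16 with an adjusted p were higher and 13 did not pass, with a median of 0.17. TP53INP1, a p53-induced protein that binds LC3, had 1.87 (SE 0.25, adjusted p = 2.30e-11) per the authors' deposited table. TMEM41B, which works with VMP1, had 0.67 (adjusted p = 0.00249) and WDR45, a WIPI relative also called WIPI4, had 0.58 (adjusted p = 0.0175) per the authors' deposited table. Among receptors for organelles and ferritin, 2 of 18 were higher and 16 did not pass, with a median of 0.04. CCPG1, a receptor for the endoplasmic reticulum, had 1.53 (SE 0.23, adjusted p = 1.18e-08) and BCL2L13, a mitochondrial receptor, 0.65 (adjusted p = 7.12e-05) per the authors' deposited table.

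Of upstream kinases and their subunits, 2 of 13 were higher and 11 did not pass, with a median of -0.04. These were AKT1S1 (PRAS40), an inhibitory subunit of mTORC1, and PRKAB1, a subunit of AMPK, each at 0.66 per the authors' deposited table (adjusted p = 0.00206 and 0.00735), while MTOR had -0.14 and PRKAA1, a catalytic subunit of AMPK, -0.14. In the machinery that fuses autophagosomes with lysosomes, 0 of 13 passed at the DESeq2 adjusted p of the authors, with a median of 0.04. An unadjusted p under 0.05 was found for 2 of the 13, beside 9.11% of all genes positive and 6.88% negative at that p. The adaptor PLEKHM1 at 0.41 (adjusted p = 0.0982) and the tethering subunit VPS11 at 0.28 (adjusted p = 0.256) had the smallest values of p per the authors' deposited table. No gene of the 5 lists was lower by the adjusted p.

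**Figure D4:**
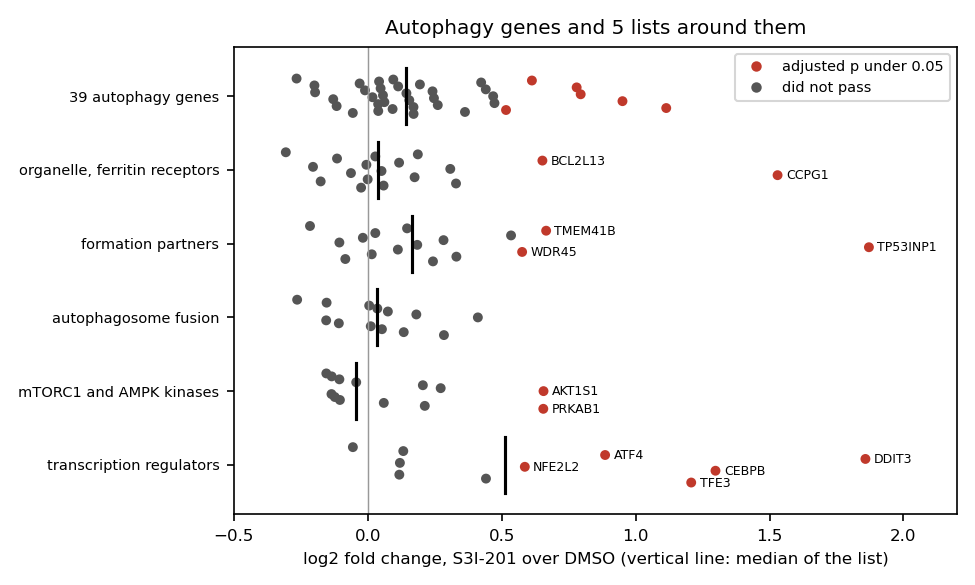
Log2 fold change of S3I-201 over DMSO (x axis) for the 37 autophagy genes and 5 surrounding lists (rows), 1 point per gene with an adjusted p, red where it passed 0.05, with a vertical line at the list median. Medians run from -0.04 for mTORC1 and AMPK kinases to 0.51 for transcription regulators, and points past 0.05 lie to the right of 0 in each list that has any.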

How the data were processed

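RNA of REH cells treated with S3I-201 or DMSO was made into TruSeq RNA v2 libraries, per the labels' protocols, a kit that does not mark the strand. The submitters' processing notes name hg38, bcl2fastq 2.19, Trimmomatic, Bowtie2, Picard, featureCounts and DESeq2 with no role or order. The annotation, the strand setting and the formula of the model are not given in the sources used here. Each row of the deposited table holds 1 gene. Its mean normalized count is a signal, the authors' average over the 6 libraries of counts scaled by size factors, per the file headers. The log2 fold change comes from the authors' own fit, per the file headers, as does each raw or adjusted p-value that the authors deposited. An adjusted p was given for 11912 genes, all with a mean of at least 10.0.

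The authors' DESeq2 adjusted p was used at 0.05. From the table, implied SEs and 95% intervals, implied group means (with equal group sizes and the shrunken fold change) and levels per kb of the exon union of GENCODE 29 were computed with Python 3.11.15, pandas 2.3.3 and scipy 1.17.1. The size factors explained 100% of 2067 genes with a mean under 0.6 within 1e-07. All 39 genes were named, and from each surrounding list every gene that passed, or the 2 with the smallest adjusted p where none did. TFEB, MITF, FOXO3, FOXO1, MTOR and PRKAA1 were named after their values were seen. The members and lists were chosen with earlier results of these data known. Alternatives were other thresholds, adjustments, filters and centrings, and the steps were tested on simulated data. Intervals cover only the spread implied by the authors' p-values.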

Additional observations from a re-analysis of the deposited data

How the results depend on the processing

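The number of autophagy genes higher with S3I-201 stayed between 4 and 9 under every alternative but 1, and 0 were lower under each of them. With a log2 fold change of at least 1 in size required as well, 1 of 37 was left, GABARAPL1, beside 1.31% of all genes higher. Adjustment over every gene with a p-value kept the same 6 genes, beside 2.92% of all genes. At a threshold of 0.01, ATG13 and CALCOCO2 did not pass, and at 0.1 ATG12, ATG4D and NBR1 passed too. The shares of all genes higher were 3.05% at 0.01 and 5.27% at 0.1. With genes under a mean of 100 left out, GABARAPL1 and WIPI1 were not tested and the other 4 passed, beside 4.66% of the genes kept. With the abundance trend or the median of all genes removed, 7 passed, ATG12 being added, beside 4.81% and 4.71% of all genes. The median log2 fold change of the autophagy genes ran from 0.11, with ULK2 and MAP1LC3A included, to 0.17. No paired analysis was possible because the table holds no values of single libraries, and for the same reason leaving out each replicate in turn was not run. Depth limits GABARAPL1, WIPI1, OPTN and ATG10, with means from 42.3 to 85.5, and gives no statement on ULK2 or MAP1LC3A.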
